A study of Homo sapiens with 24 samples.

Results

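The genes described here are 10 members of the autophagy machinery: the ATG8 family genes GABARAP, GABARAPL1, GABARAPL2, MAP1LC3A and MAP1LC3B, the phosphoinositide effector gene WIPI1, and the cargo receptor genes NBR1, OPTN, CALCOCO2 and TAX1BP1. They were taken by symbol from the gene tables, and all 10 were found among the 21831 genes of every table and passed the filter on low counts. The cells were HBL-1, an established human lymphoma line of the activated B-cell type (ABC-DLBCL), and their RNA was sequenced in bulk. They received dimethyl fumarate (DMF) at 20 µM in DMSO, or the solvent DMSO without it, which is called control here. DMF is a reactive ester that modifies cysteines, and it is known to activate NRF2, a transcription factor of antioxidant genes. The 8 groups are these 2 treatments at 6, 12, 24 and 48 h, and each group has 3 libraries, 24 in all. All groups share the cell line, and no other lymphoma line was compared. The labels do not say that replicates came from separate cultures, so the p-values measure only the spread between libraries, which may be technical.

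Autophagy encloses cytoplasm in a double membrane, the autophagosome, which then fuses with the lysosome. ATG8 proteins are small ubiquitin-like proteins that are joined to a membrane lipid on the growing autophagosome. They fall into the LC3 and GABARAP subfamilies, and both serve as docking points on that membrane. Receptors bind a cargo, often one marked with ubiquitin, and at the same time an ATG8 protein, which brings the cargo into the autophagosome. WIPI proteins bind the phosphoinositide PI3P on the forming membrane. Transcript levels say nothing of the lipid-joined form of the proteins, by which autophagy is usually followed.

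Summed expected counts, the reads estimated for each library, were lowest in DMF replicate 1 of 48 h (2870751), next at 23097873, and 40906596 at most. Replicate 3 of 12 h differed from the rest in both treatments: its counts lay on shorter transcripts. The effective length averaged over counts was 1902 and 2121 bases in this pair, and 2850 to 3157 bases in the other 22 libraries. The main fit (edgeR's quasi-likelihood test, called at a Benjamini-Hochberg adjusted p under 0.05) used all 24 libraries, and values from a fit of the 22 libraries stand beside many of the results. The common dispersion was 0.0521 with 24 libraries and 0.00212 with the 22, so the 2 libraries set the width of the errors at every time. Levels are given as CPM, counts per 1000000 after TMM scaling, and log2 fold changes (DMF over control) with their standard error (SE). A gene said to rise or fall is higher or lower in DMF than in same-time control, unless a change over time is named. B-cell markers were present in every library, with CD79A at 1353 to 3308 TPM, CD79B at 1432 to 4478 TPM and MS4A1 at 80.8 to 511 TPM. PAX5 was lowest at 8.21 TPM and CD22 at 16.8 TPM. The 5 T-cell markers in the tables were under 1 TPM in every library. The myeloid marker CD68, a lysosomal protein, was at 1.86 TPM or more, with the other 4 myeloid markers under 1 TPM in every library. Of the 6 fibroblast and epithelial markers, EPCAM reached 3.9 TPM, KRT8 2.41 TPM and KRT18 1.6 TPM. The other 3 of that list were under 1 TPM in every library. IRF4, taken as a marker of activated B cells, was at 19.3 to 225 TPM. Each value is an average over the culture, in which fewer expressing cells and less RNA per cell cannot be told apart.

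The promoter sequences shown are those of the members whose windows held a match to a motif described below. The motif of GABARAPL1 was chosen after its sequence had been read, so which members are shown says nothing of their response to DMF. The sequences are the 250 bases before the RefSeq start site, from GRCh38.p14, on the plus strand, 5′ to 3′, and capitals mark the motif matches described after them.
GABARAPL1 (chr12:10212627-10212876): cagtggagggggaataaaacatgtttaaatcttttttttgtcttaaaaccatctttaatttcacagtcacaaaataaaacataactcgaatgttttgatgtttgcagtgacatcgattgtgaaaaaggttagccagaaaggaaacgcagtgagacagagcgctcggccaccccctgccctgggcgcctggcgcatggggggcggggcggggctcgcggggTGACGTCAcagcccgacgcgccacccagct
MAP1LC3B (chr16:87392086-87392335): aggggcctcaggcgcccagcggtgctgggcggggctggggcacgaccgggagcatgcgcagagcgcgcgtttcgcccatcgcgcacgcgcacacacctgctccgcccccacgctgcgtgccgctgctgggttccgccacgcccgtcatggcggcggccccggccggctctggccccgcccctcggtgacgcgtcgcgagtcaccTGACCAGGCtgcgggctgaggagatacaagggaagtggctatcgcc
CALCOCO2 (chr17:48830785-48831034): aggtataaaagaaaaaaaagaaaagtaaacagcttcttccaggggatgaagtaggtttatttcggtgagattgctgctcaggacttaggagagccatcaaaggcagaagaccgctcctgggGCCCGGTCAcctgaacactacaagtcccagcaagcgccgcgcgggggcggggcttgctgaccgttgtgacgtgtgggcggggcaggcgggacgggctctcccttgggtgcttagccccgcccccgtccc
RefSeq windows of 300 bases, from 250 before to 50 after a start site, were at hand for 9 of the 10 members (12 windows, with MAP1LC3A the member without one). They were searched on both strands for 3 motifs. The core of the antioxidant response element bound by NRF2, TGACNNNGC, was in 13.3% of all 35116 windows. It was in 2 of the 12 member windows, as TGACCAGGC at position -46 of MAP1LC3B and, on the minus strand, as GCCCGGTCA at position -129 of CALCOCO2. Positions count from the start site, with -1 the last base before it. The E-box CACGTG, present in 7.26% of all windows, was in no member window. The cAMP response element TGACGTCA was searched for after the GABARAPL1 sequence had been read. It was in 1.85% of all windows and at position -30 of GABARAPL1, and no matches of different motifs overlapped. The matches describe letters in these windows and are not evidence of binding.

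GABARAPL1 rose at every time and had the largest log2 fold change of the 10 members at every time, in both fits. It encodes a GABARAP subfamily protein and lies on chromosome 12, 10212458 to 10223130 (GRCh38, as are all gene positions here). At 6 h the control libraries held 9.09, 8.95 and 7.93 CPM and the DMF libraries 39.5, 40.0 and 40.4 CPM. Every DMF library lay above every control, and the DMF libraries lay closer together than the controls on a relative scale. The rise was 4.61-fold (log2 fold change 2.21 ± 0.15 SE, edgeR adjusted p = 7.88e-09).

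The highest fold of GABARAPL1 was that at 12 h. Control held 5.85, 5.33 and 4.03 CPM and DMF 38.1, 37.5 and 32.9 CPM, with the lowest value of each group in replicate 3, the library that stood apart. The rise was 7.12-fold (log2 fold change 2.83 ± 0.15 SE, edgeR adjusted p = 4.06e-10), and 6.81-fold in the 22 libraries. At 24 h both groups were at their lowest, 4.06, 4.19 and 3.55 CPM in control and 15.6, 15.7 and 13.1 CPM in DMF. DMF was 3.76-fold higher (log2 fold change 1.91 ± 0.15 SE, edgeR adjusted p = 6.41e-08). By 48 h both groups were higher than at 24 h, with 6.18, 7.69 and 8.87 CPM in control and 24.3, 30.9 and 26.3 CPM in DMF, and no values overlapped. The difference was 3.61-fold (log2 fold change 1.85 ± 0.15 SE, edgeR adjusted p = 2.6e-08). The effect of DMF on GABARAPL1 differed between times in the joint test of the 4 times (edgeR adjusted p = 0.00613 with 24 libraries and 0.000121 with the 22). GABARAPL3, a near-copy of GABARAPL1 that is regarded as a pseudogene, had 0 counts in all 24 libraries. A count of 0 allows up to 3 counts per library, which is 0.0733 to 1.05 CPM before TMM scaling. How RSEM divided reads between these copies is uncertain.

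MAP1LC3B, the LC3 gene used most often as a marker of autophagosomes, also rose at all 4 times, by less. It lies on chromosome 16, 87383995 to 87404779. Control libraries at 6 h had 62.0, 58.2 and 58.3 CPM, and DMF libraries 107, 98.0 and 107 CPM. The groups did not overlap, and the difference was 1.75-fold (log2 fold change 0.81 ± 0.08 SE, edgeR adjusted p = 6.94e-07). At 12 h control held 47.8, 46.2 and 48.7 CPM and DMF 82.6, 82.2 and 92.6 CPM. Here the replicate 3 libraries were the highest of each group, in contrast to GABARAPL1. The rise was 1.80-fold (log2 fold change 0.85 ± 0.08 SE, edgeR adjusted p = 2.82e-07).

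The rise of MAP1LC3B was smaller at the later times. At 24 h control held 44.2, 43.9 and 45.4 CPM and DMF 69.0, 61.3 and 61.3 CPM, a 1.43-fold difference (log2 fold change 0.52 ± 0.08 SE, edgeR adjusted p = 8.55e-05). At 48 h control held 51.5, 51.8 and 47.9 CPM and DMF 76.3, 70.4 and 71.7 CPM, a 1.44-fold difference (log2 fold change 0.53 ± 0.08 SE, edgeR adjusted p = 3.1e-05). DMF libraries were above all controls at both times. The joint test of a difference between times gave an edgeR adjusted p of 0.0482, near the threshold, and 0.000331 in the 22 libraries. The rises at 6 and 24 h were not called by limma on log2(TPM + 1), at 0.65 and 0.46 (adjusted p = 0.166 and 0.395). Those at 12 and 48 h were called by limma on that scale (adjusted p = 0.0401 and 0.0419). Without a filter on TPM they were not (limma adjusted p = 0.0593 and 0.0522). With log2(TPM + 0.1) the rise at 48 h was not called either (limma adjusted p = 0.0506). Fitted with the 12 h libraries alone, edgeR called neither GABARAPL1 nor MAP1LC3B at 12 h (log2 fold change 2.83 and 0.84, adjusted p = 0.0865 and 0.205). In the annotation an exon of MAP1LC3B shares 89 bases with FBXO31 on the other strand, a gene that reached 40.6 CPM, and the strand used in counting was not given in the sources used here. The near-copy MAP1LC3B2 held 9.71 to 50.2 expected counts per library and 0.328 to 3.04 CPM, and MAP1LC3C at most 2.0 expected counts. At 48 h MAP1LC3B2 held 0.49, 0.641 and 0.42 CPM in control and 3.04, 1.12 and 0.836 CPM in DMF, the highest in the shallowest library, from 9.71 expected counts. It was called there by a narrow margin (log2 fold change 1.27 ± 0.46 SE, edgeR adjusted p = 0.0496). Without that library it was not called (0.92 ± 0.42 SE, edgeR adjusted p = 0.134), and with each of the 24 libraries left out in turn it was called in 4 fits. In the 22 libraries it was at 1.14 (edgeR adjusted p = 0.00699). Reads of MAP1LC3B and MAP1LC3B2 could have been divided between them.

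**Figure D1:**
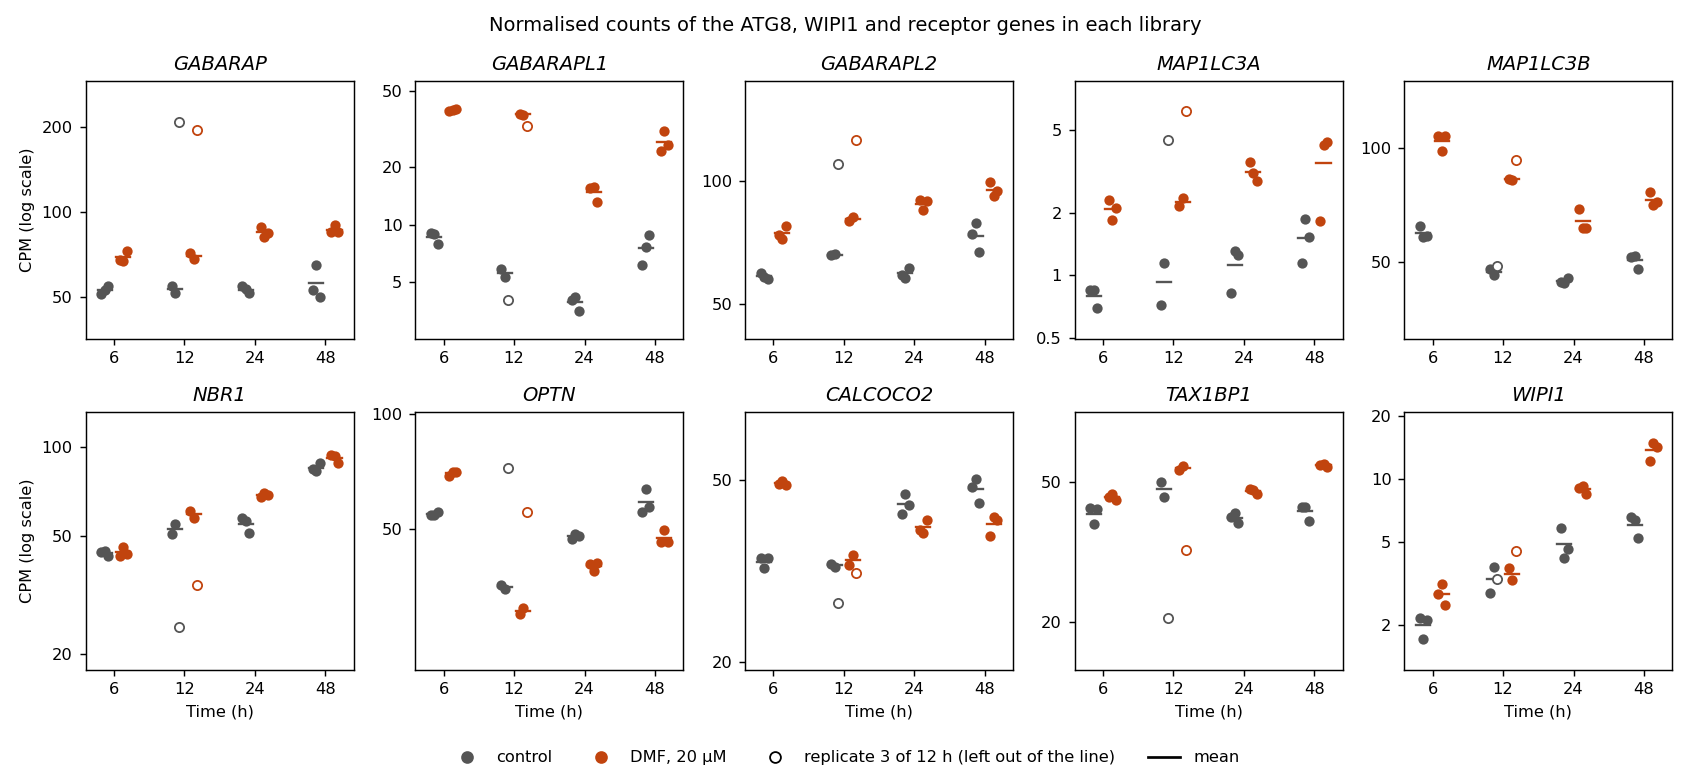
CPM on a log axis for each of the 10 genes, by time in h, with control libraries in grey, DMF libraries in red, open circles for the replicate 3 libraries of 12 h, and a line at the mean of the filled points. GABARAPL1 and MAP1LC3B in DMF lie above every control at each time, WIPI1 is higher in DMF with no overlap at 6, 24 and 48 h, and CALCOCO2 and OPTN in DMF are above control at 6 h and below it at 24 and 48 h.

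GABARAP and GABARAPL2 were the most abundant members on the per-length scale, and their differences were smaller than that of GABARAPL1. GABARAP (chromosome 17, 7240014 to 7242770, minus strand) had 51.3, 52.8 and 54.8 CPM in control and 67.5, 67.0 and 72.9 CPM in DMF at 6 h. At 24 h it had 54.5, 53.2 and 51.4 CPM in control and 88.5, 81.6 and 84.2 CPM in DMF, and at 48 h 52.9, 65.0 and 49.8 CPM against 84.5, 89.8 and 84.9 CPM. All DMF libraries were above all controls at these 3 times. The log2 fold changes were 0.38, 0.68 and 0.63 at 6, 24 and 48 h, each ± 0.41 SE, and did not pass the test with 24 libraries (edgeR adjusted p = 0.735, 0.336 and 0.305). GABARAP was called by limma on log2(TPM + 1) at 24 and 48 h (0.62 and 0.86, adjusted p = 0.00152 and 1.98e-05). The values passed edgeR's test with the 22 libraries (0.38, 0.68 and 0.64, edgeR adjusted p = 2.17e-05, 1.25e-09 and 4.37e-09). In the annotation an exon of GABARAP shares 493 bases with the protein-coding gene AC120057.2 on the same strand. That gene was not among those counted.

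The replicate 3 libraries of 12 h carried the widest deviation of GABARAP, which is the shortest member, with an effective length of 625 to 644 bases. Control at 12 h held 54.6, 51.6 and 207 CPM and DMF 71.5, 67.9 and 195 CPM. The third value of each group was about as high in control as in DMF and far above every other library of the series. The log2 fold change was 0.10 ± 0.41 SE with 24 libraries (edgeR adjusted p = 0.918). Without control replicate 3 alone it was 1.06 (edgeR adjusted p = 0.0102), and without DMF replicate 3 alone -0.57 (edgeR adjusted p = 0.25). It was 0.40 ± 0.08 SE with the 22 (edgeR adjusted p = 0.000131) and 0.23 ± 0.08 SE with same-numbered libraries as pairs (edgeR adjusted p = 0.0321). The labels give no pairing beyond the replicate number.

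GABARAPL2 (chromosome 16, 75566351 to 75577881), also called GATE-16, had values that followed those of GABARAP. In control and DMF it had 59.4, 58.2 and 57.4 against 73.8, 72.0 and 77.4 CPM at 6 h, and 58.8, 57.9 and 61.3 against 89.8, 85.2 and 89.4 CPM at 24 h. At 48 h the values were 74.1, 78.8 and 66.8 CPM in control and 99.7, 92.0 and 94.4 CPM in DMF. No groups overlapped at these 3 times. The rise at 24 h was called (1.49-fold, log2 fold change 0.57 ± 0.17 SE, edgeR adjusted p = 0.0293). That call was lost when any of 15 of the 24 libraries was left out, at adjusted p of 0.0501 to 0.167, with log2 fold changes of 0.54 to 0.58, and with DESeq2's size factors (edgeR adjusted p = 0.0618). At 6 and 48 h the log2 fold changes of 0.35 and 0.38 did not pass with 24 libraries (edgeR adjusted p = 0.25 and 0.118) and passed with the 22 (edgeR adjusted p = 1.16e-06 and 2.79e-07). At 12 h replicate 3 was again the highest of each group, with 65.7, 66.1 and 110 CPM in control and 79.9, 81.7 and 126 CPM in DMF. The log2 fold change there was 0.25 ± 0.17 SE (edgeR adjusted p = 0.377), 0.53 without control replicate 3 alone (edgeR adjusted p = 0.00576), 0.30 in the 22 libraries (edgeR adjusted p = 0.000111) and 0.26 with same-numbered libraries as pairs (edgeR adjusted p = 0.00183).

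MAP1LC3A (chromosome 20, 34546854 to 34560345), which encodes another LC3 protein, was the scarcest member at 24 and 48 h in both treatments. It had 0.85, 0.849 and 0.694 CPM in control and 2.29, 1.84 and 2.11 CPM in DMF at 6 h. The values were 0.819, 1.31 and 1.25 against 3.49, 3.11 and 2.85 CPM at 24 h. At 48 h they were 1.14, 1.86 and 1.52 against 1.82, 4.24 and 4.39 CPM. The groups were apart at 6 and 24 h and overlapped at 48 h through replicate 1 of DMF, the shallowest library, where MAP1LC3A had 6 counts. Its log2 fold changes of 1.38, 0.76, 1.48 and 1.34 at the 4 times did not pass with 24 libraries (edgeR adjusted p = 0.116, 0.338, 0.0554 and 0.0575). Those in the 22 libraries, 1.39, 1.25, 1.48 and 1.44, did pass (edgeR adjusted p = 2.8e-05, 0.000319, 7.87e-07 and 6.27e-07). At 12 h replicate 3 stood apart here too, with 0.723, 1.14 and 4.48 CPM in control and 2.15, 2.36 and 6.14 CPM in DMF. Without control replicate 3 alone the log2 fold change at 12 h was 1.85 (edgeR adjusted p = 0.00171). MAP1LC3A was also called by limma on log2(TPM + 1) at each time, with adjusted p of 0.0252, 0.0382, 0.0032 and 0.00153, and by DESeq2 at 24 h (adjusted p = 0.0322). With same-numbered libraries as pairs, the log2 fold change at 12 h was 0.91 ± 0.21 SE (edgeR adjusted p = 0.00246).

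Summed over the 5 ATG8 genes, transcript levels per length in DMF lay above all control libraries of the same time. TPM (transcripts per 1000000) corrects for transcript length, so genes can be set beside each other. The sum was 318 ± 2.56 TPM in control and 421 ± 7.88 TPM in DMF at 6 h (mean ± SD, n = 3). It was 314 ± 0.885 and 477 ± 2 TPM at 24 h, and 332 ± 11.3 and 577 ± 9.33 TPM at 48 h. At 12 h the sums were 312 ± 5.11 and 414 ± 12.5 TPM without replicate 3 (n = 2), and 301 ± 19.7 and 407 ± 15 TPM with it. TPM values shift with the rest of the transcriptome: on the log2(TPM + 1) scale the median of all genes was -0.13 at 6 h and 0.22 at 48 h.

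The share of GABARAPL1 in the family was higher in DMF at each time. GABARAPL1 was 2.79% ± 0.236 of the summed TPM in control at 6 h and 8.69% ± 0.339 in DMF. At 12 h without replicate 3 its share was 1.77% in control and 8.28% in DMF. The share was 1.3% ± 0.122 against 3.13% ± 0.342 at 24 h and 2.28% ± 0.502 against 5.35% ± 0.620 at 48 h. No library of one treatment reached the range of the other at the same time in these comparisons. GABARAP and GABARAPL2 made up most of the family in every group, with 42.2% and 39.7% in control and 37.9% and 34.7% in DMF at 6 h. Their shares at 48 h were 40.2% and 45.1% in control and 42.2% and 39.8% in DMF. MAP1LC3B was 14.8% ± 0.519 in control and 17.7% ± 0.598 in DMF at 6 h, and 11.4% ± 0.693 and 11.1% ± 0.407 at 48 h, where the treatments overlapped.

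**Figure D2:**
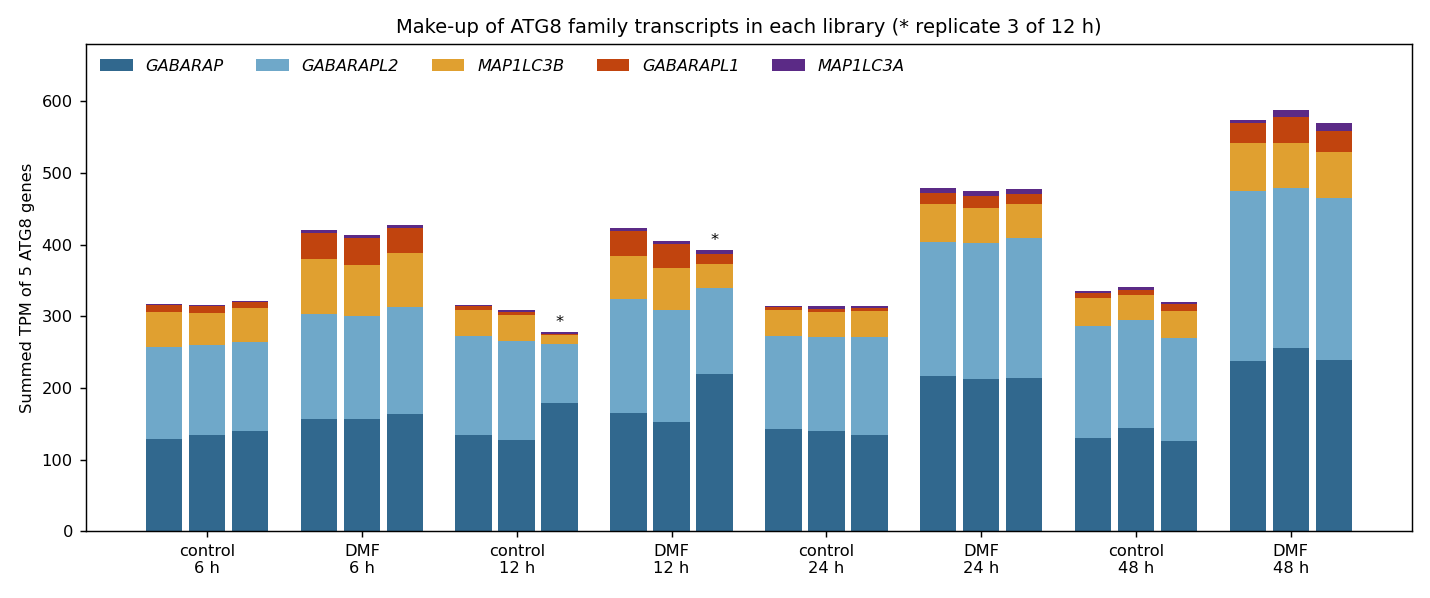
Stacked bars of the TPM of 5 ATG8 genes in each of the 24 libraries, by treatment and time in h, with an asterisk over the replicate 3 libraries of 12 h. The sum is 316 to 321 TPM in control and 413 to 428 TPM in DMF at 6 h, and 320 to 341 and 570 to 588 TPM at 48 h, and the GABARAPL1 part in DMF is 36.1 to 37.4 TPM at 6 h.

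WIPI1 rose after 24 and 48 h of DMF. It lies on chromosome 17, 68420948 to 68457513, minus strand. At 24 h it had 5.82, 4.19 and 4.62 CPM in control and 9.05, 9.19 and 8.49 CPM in DMF. At 48 h control held 6.54, 6.35 and 5.22 CPM and DMF 12.2, 14.9 and 14.2 CPM. The groups did not overlap at either time. The folds were 1.83 at 24 h (log2 fold change 0.87 ± 0.15 SE, edgeR adjusted p = 0.000574) and 2.30 at 48 h (log2 fold change 1.20 ± 0.16 SE, edgeR adjusted p = 9.72e-06).

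The earlier WIPI1 values were lower and closer together. At 6 h they were 2.16, 1.70 and 2.11 CPM in control and 2.81, 3.14 and 2.47 CPM in DMF, apart from each other but not called (log2 fold change 0.49 ± 0.16 SE, edgeR adjusted p = 0.0654, and 0.0183 in the 22 libraries). Without control or DMF replicate 3 of 12 h alone the adjusted p at 6 h was 0.0491 and 0.0458 in edgeR. At 12 h the 2.83, 3.77 and 3.32 CPM of control overlapped the 3.74, 3.27 and 4.52 CPM of DMF (log2 fold change 0.21 ± 0.16 SE, edgeR adjusted p = 0.439, and 0.737 in the 22 libraries). The effect of DMF on WIPI1 differed between times (joint edgeR adjusted p = 0.0158, and 0.000101 in the 22 libraries). WIPI1 also rose in control cells, 3.02-fold from 6 to 48 h (log2 fold change 1.59 ± 0.16 SE, edgeR adjusted p = 2.32e-07). An exon of WIPI1 shares 539 bases with ARSG on the other strand, which reached at most 11.5 CPM, and their reads cannot be told apart where counting ignored strand.

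Of the receptors, CALCOCO2 was called in opposite directions at different times. It encodes NDP52, a receptor for ubiquitin-coated bacteria and damaged mitochondria, and lies on chromosome 17, 48830988 to 48866522. At 6 h control held 33.7, 32.0 and 33.7 CPM and DMF 49.0, 49.6 and 48.7 CPM. All DMF libraries were higher, by 1.48-fold (log2 fold change 0.57 ± 0.08 SE, edgeR adjusted p = 0.000106). On the log2(TPM + 1) scale this difference was 0.40 and not called by limma (adjusted p = 0.636). At 48 h control held 48.3, 50.2 and 44.4 CPM and DMF 37.7, 41.5 and 40.8 CPM. All DMF libraries were now lower, and the log2 fold change of -0.25 ± 0.08 SE was called (edgeR adjusted p = 0.032, and 0.000757 in the 22 libraries).

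The call of CALCOCO2 at 48 h depended on the filter, on single libraries and on the scale. Without the low-count filter the log2 fold change was -0.25 and not called (edgeR adjusted p = 0.0741). Without replicate 1 or 2 of control or replicate 1 of DMF at 48 h it was -0.24, -0.23 and -0.21, again not called (edgeR adjusted p = 0.0871, 0.0538 and 0.119). On the log2(TPM + 1) scale it was -0.02, which is -0.23 relative to the median of all genes on that scale. In between, at 12 h, the groups overlapped, with 32.7, 32.3 and 26.9 CPM in control and 32.5, 34.3 and 31.3 CPM in DMF (log2 fold change 0.09 ± 0.08 SE, edgeR adjusted p = 0.516). At 24 h control held 42.1, 46.5 and 44.1 CPM and DMF 38.9, 38.2 and 40.9 CPM, and the log2 fold change was -0.17 ± 0.08 SE (edgeR adjusted p = 0.203, and 0.00491 in the 22 libraries). DMF lay below control in all 3 libraries at 24 h. The effect differed between times (joint edgeR adjusted p = 0.000247, and 1.89e-09 in the 22 libraries).

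OPTN showed the same order of groups without a call in the fit of 24 libraries. It encodes optineurin, a receptor phosphorylated by the kinase TBK1, and lies on chromosome 10, 13099449 to 13138308. Control held 54.6, 54.3 and 55.6 CPM and DMF 69.1, 70.7 and 70.4 CPM at 6 h. At 24 h the values were 47.0, 48.6 and 48.0 against 40.4, 38.9 and 40.7 CPM, and at 48 h 55.6, 63.8 and 57.2 against 46.2, 49.8 and 46.3 CPM. DMF was above control in all libraries at 6 h and below it in all libraries at 24 and 48 h. The log2 fold changes were 0.35, -0.26 and -0.31 with 24 libraries (edgeR adjusted p = 0.438, 0.549 and 0.372). In the 22 libraries they were 0.35, -0.26 and -0.29 (edgeR adjusted p = 4.29e-07, 3.76e-05 and 9.58e-06). On the log2(TPM + 1) scale the value at 48 h was -0.07, or -0.28 relative to the median of all genes. At 12 h control held 35.6, 34.8 and 72.4 CPM and DMF 29.9, 31.0 and 55.4 CPM, with replicate 3 the highest of each group. Leaving out 1 library turned this value: it was 0.12 without control replicate 3 (edgeR adjusted p = 0.599) and -0.64 without DMF replicate 3 (edgeR adjusted p = 0.0278). With both the log2 fold change was -0.30 ± 0.23 SE (edgeR adjusted p = 0.443), -0.20 in the 22 libraries (edgeR adjusted p = 0.00568) and -0.27 with same-numbered libraries as pairs (edgeR adjusted p = 0.000986). The joint test of times gave an edgeR adjusted p of 0.389 with 24 libraries and 7.37e-09 with the 22.

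TAX1BP1 and NBR1 had smaller differences, and neither was called with 24 libraries. TAX1BP1 (chromosome 7, 27739331 to 27844564) encodes a ubiquitin-binding receptor related to NDP52. At 48 h it had 42.4, 42.5 and 38.7 CPM in control and 55.6, 56.2 and 55.1 CPM in DMF, its widest gap (log2 fold change 0.43 ± 0.22 SE, edgeR adjusted p = 0.179, 0.0159 without control replicate 3 of 12 h, and 2.27e-08 in the 22 libraries). At 6 and 24 h all DMF libraries were also above control, with 42.0, 38 and 41.8 against 45.3, 46.2 and 44.4 CPM at 6 h and 39.7, 40.7 and 38.2 against 47.8, 47.3 and 46.2 CPM at 24 h. Those log2 fold changes were 0.16 and 0.25 (edgeR adjusted p = 0.829 and 0.554, and 0.0099 and 5.86e-05 in the 22 libraries). At 12 h replicate 3 was the lowest of each group, with 49.8, 45.2 and 20.5 CPM in control and 53.8, 55.3 and 31.9 CPM in DMF. The log2 fold change was 0.29 ± 0.22 SE (edgeR adjusted p = 0.453), 0.20 in the 22 libraries (edgeR adjusted p = 0.00416) and 0.33 in pairs (edgeR adjusted p = 0.0031). Without control replicate 3 alone it was -0.02. An exon of TAX1BP1 shares 268 bases with JAZF1 on the other strand, a gene that reached 30.7 CPM.

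NBR1 (chromosome 17, 43170481 to 43211689) encodes a receptor for protein aggregates and peroxisomes. At 6 h its groups overlapped, with 44.3, 44.6 and 42.9 CPM in control and 43.0, 46.1 and 43.6 CPM in DMF (log2 fold change 0.01 ± 0.21 SE, edgeR adjusted p = 0.995, and 0.886 in the 22 libraries). On the log2(TPM + 1) scale it was -0.14, or -0.02 relative to the median of all genes. At 24 h control held 57.6, 56.3 and 51.4 CPM and DMF 67.7, 70.2 and 68.7 CPM. DMF was above control in all 3 libraries, with a log2 fold change of 0.32 ± 0.21 SE (edgeR adjusted p = 0.383, and 1.59e-06 in the 22 libraries). At 48 h both groups were higher and their values met at 88.4 CPM, with 84.5, 82.9 and 88.4 CPM in control and 93.9, 93.1 and 88.4 CPM in DMF (log2 fold change 0.11 ± 0.21 SE, edgeR adjusted p = 0.788, and 0.0601 in the 22 libraries). The values at 12 h were 50.9, 54.8 and 24.7 CPM in control and 60.9, 57.7 and 34.3 CPM in DMF, again with the lowest in replicate 3. The log2 fold change at 12 h was 0.23 ± 0.21 SE (edgeR adjusted p = 0.543), 0.17 in the 22 libraries (edgeR adjusted p = 0.0171) and 0.26 in pairs (edgeR adjusted p = 0.00723). Without control replicate 3 alone it was -0.06.

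**Figure D3:**
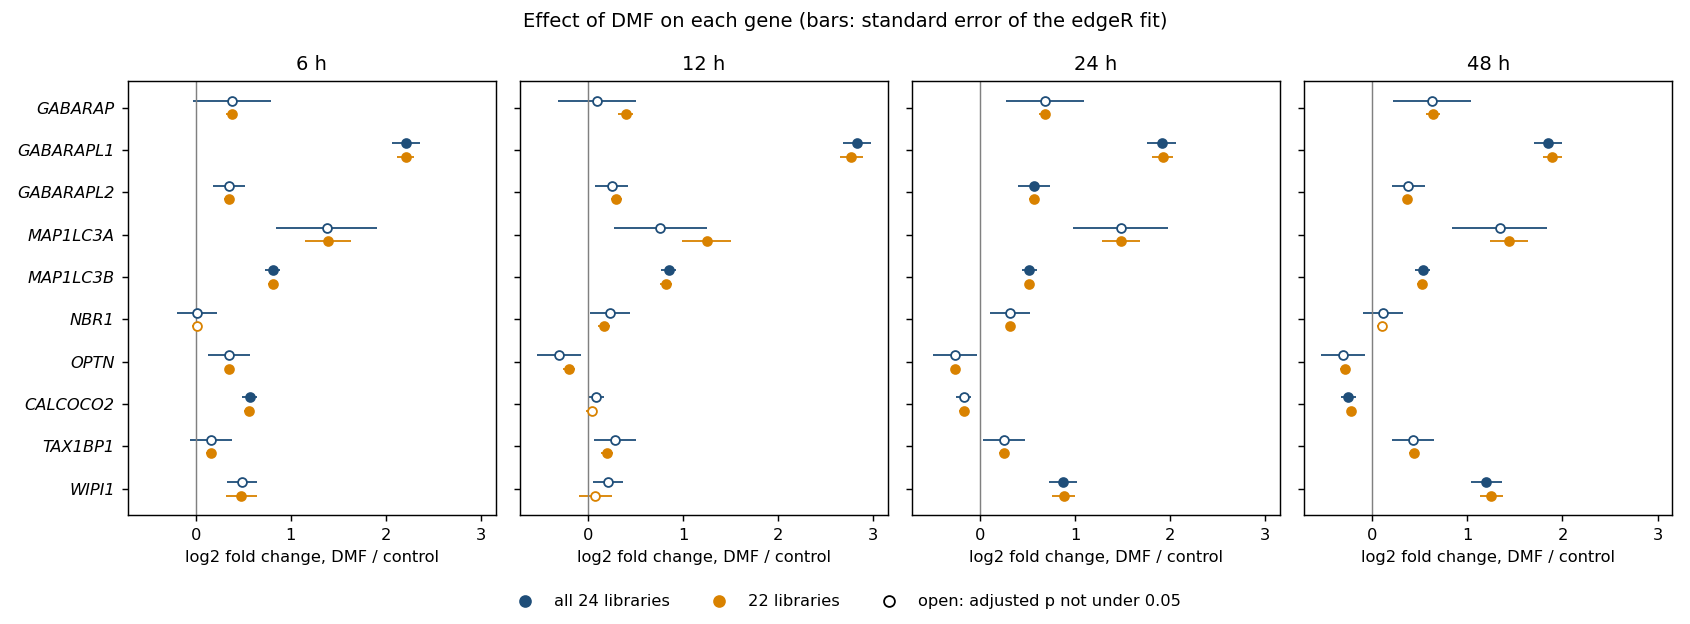
Log2 fold change of DMF over control for each gene at 6, 12, 24 and 48 h, with bars of 1 SE, for the fit of 24 libraries in blue and of the 22 libraries in orange, filled where the edgeR adjusted p was under 0.05. GABARAPL1 lies furthest to the right at each time, from 1.85 to 2.83 with 24 libraries, and the bar of GABARAP at 6 h is 0.41 with 24 libraries and 0.06 with the 22.

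At 6 h 3 of the 10 members rose (GABARAPL1, MAP1LC3B and CALCOCO2), where 10.6% of all 13419 genes were called, 5.03% higher and 5.59% lower. None fell by edgeR or by DESeq2, which called 6.96% of all genes lower. At an unadjusted p under 0.05, 5 members were higher and 0 lower in each tool. Under that p were 2837 of all 13419 genes in edgeR and 3059 in DESeq2, in either direction. GABARAPL1 and MAP1LC3B rose at 12 h, 2 of 10, where 17.3% of all genes were called, 7.37% higher and 9.95% lower. None fell there by either tool, and DESeq2 called 11.1% of all genes lower. At an unadjusted p under 0.05, 2 members were higher and 0 lower in each tool. Under that p were 3781 of all 13419 genes in edgeR and 3988 in DESeq2, in either direction. With same-numbered libraries as pairs 7 rose and OPTN fell at 12 h, where 47.8% of all genes were called, 23.3% higher and 24.4% lower. At 24 h 4 rose (GABARAPL1, MAP1LC3B, GABARAPL2 and WIPI1), where 14.4% of all genes were called, 7.81% higher and 6.6% lower. None fell by edgeR, with 5 higher and 0 lower at an unadjusted p under 0.05. Under that p were 3394 of all 13419 genes in edgeR, in either direction. CALCOCO2 was called lower by DESeq2 (adjusted p = 0.0244), as were 9.08% of all genes. At 48 h GABARAPL1, MAP1LC3B and WIPI1 rose and CALCOCO2 fell, 4 of 10, where 25.8% of all genes were called, 13.3% higher and 12.5% lower.

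More was called in the 22 libraries, among the members and among all genes. There 9 members rose at 6 h, every one but NBR1, where 47.2% of all 13606 genes were called, 23.8% higher and 23.4% lower. At 12 h 7 rose and OPTN fell (47.9% of all genes, 24.1% higher and 23.8% lower). At 24 h 8 rose and OPTN and CALCOCO2 fell (57.4%, 29.5% higher and 27.9% lower), and at 48 h 7 rose and that pair fell (64.5%, 33.6% higher and 30.9% lower). The median log2 fold change of the members was 0.44, 0.24, 0.55 and 0.48 at the 4 times with 24 libraries, beside -0.05 to 0.02 for all genes tested.

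By library values alone, all DMF libraries were above all controls for 9 members at 6 h. Of all genes 59.9% were apart at that time, 30.2% higher and 29.6% lower. This held for 8 members at 24 h, with 2 below (63.9% of all genes, 32.1% higher and 31.8% lower), and for 6 at 48 h, with 2 below (60.7%, 30.6% higher and 30.2% lower). At 12 h it held for 2 members (16.7% of all genes, 7.89% higher and 8.82% lower), and without replicate 3 for 7, with 1 below (73.6%, 36.9% higher and 36.8% lower). The shares of called genes that were higher depended on scaling: 47.4%, 42.6%, 54.2% and 51.5% at the 4 times with counts, and 24.7%, 32.3%, 65.9% and 73.9% with limma on log2(TPM + 1).

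The effect of DMF differed between times for 4 of the 10 members with 24 libraries (CALCOCO2, GABARAPL1, WIPI1 and MAP1LC3B), against 15% of all genes, and for 9 with the 22, against 69.1%. MAP1LC3A was the exception in the 22 libraries (edgeR adjusted p = 0.932). In control cells alone, 4 members differed between 6 and 48 h, where 42% of all genes were called, 21.6% higher and 20.4% lower. WIPI1 rose as given above, NBR1 rose 1.94-fold (log2 fold change 0.96 ± 0.21 SE, edgeR adjusted p = 0.0012) and CALCOCO2 rose 1.44-fold (log2 fold change 0.52 ± 0.08 SE, edgeR adjusted p = 4.04e-05). MAP1LC3B fell (log2 fold change -0.24 ± 0.08 SE, edgeR adjusted p = 0.0147), a call that was lost without replicate 1 or 3 of control at 6 h or replicate 2 or 3 of control at 48 h, where the log2 fold change was -0.21, -0.25, -0.25 and -0.21 (edgeR adjusted p = 0.0633, 0.0549, 0.0559 and 0.0677). NBR1, CALCOCO2 and MAP1LC3B were not called in this comparison by limma on log2(TPM + 1) (adjusted p = 0.173, 0.324 and 0.431). In the 22 libraries 6 members rose and 1 fell over this span, where 75% of all genes were called, 38.2% higher and 36.8% lower. The log2 fold changes of NBR1 with DMF were 0.01 to 0.32, beside its 0.96 between the controls, a difference that was not tested. The control at 6 and 48 h enters these comparisons and those with DMF at the same times.

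The members are ordered here by TPM, a level per length. In control at 6 h the order ran from GABARAP (134 ± 5.13 TPM, mean ± SD, n = 3) and GABARAPL2 (126 TPM) through MAP1LC3B (47.0), OPTN (27.9), TAX1BP1 (20.9), NBR1 (16.3), CALCOCO2 (15.5) and GABARAPL1 (8.86 TPM) to WIPI1 (1.86) and MAP1LC3A (1.76 TPM). Only WIPI1 and MAP1LC3A overlapped among neighbours. In DMF at 6 h GABARAPL1 was the fourth, at 36.5 ± 0.769 TPM, above OPTN (32.2 TPM). TAX1BP1 (21.2 TPM) and CALCOCO2 (20.8 TPM) then overlapped, and NBR1 (14.7), MAP1LC3A (4.18) and WIPI1 (2.41 TPM) followed. At 24 h the control order had CALCOCO2 (21.3), TAX1BP1 (21.1) and NBR1 (20.6 TPM) within overlapping ranges, and GABARAPL1 (4.08 TPM) and WIPI1 (4.74 TPM) likewise. OPTN was the fourth in control at 24 h (25.1 TPM). In DMF at 24 h NBR1 (24.5 TPM) and TAX1BP1 (24.1 TPM), with overlapping ranges, stood above OPTN (20.2 TPM), CALCOCO2 (18.3 TPM) and GABARAPL1 (14.9 TPM). In DMF at 48 h GABARAP (244 TPM) and GABARAPL2 (230 TPM) overlapped, as did TAX1BP1 (32.2), GABARAPL1 (30.9) and OPTN (26.9 TPM) in part. WIPI1 reached 14.7 ± 1.55 TPM there, and 5.46 ± 0.601 TPM in control.

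Genes of the other steps of autophagy were taken from 7 lists with 64 genes, of which 61 passed the filter. With 24 libraries 9 rose and 3 fell at 6 h, 15 rose and 4 fell at 12 h, 14 rose and 1 fell at 24 h, and 20 rose and 3 fell at 48 h. In the 22 libraries the numbers were 26 and 11, 30 and 7, 35 and 9, and 39 and 11. The background of these counts, and of those of each list below, is the share of all genes called. With 24 libraries it was 5.03%, 7.37%, 7.81% and 13.3% higher and 5.59%, 9.95%, 6.6% and 12.5% lower at the 4 times. In either direction it was 10.6%, 17.3%, 14.4% and 25.8%, and with the 22 libraries 47.2%, 47.9%, 57.4% and 64.5%. The median log2 fold change of the 61 genes was 0.09, 0.19, 0.20 and 0.32 at the 4 times.

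The highest log2 fold change at each time among these genes was that of SQSTM1, which encodes p62, a receptor for ubiquitin-marked cargo that also binds KEAP1, the inhibitor of NRF2. It had 761, 762 and 747 CPM in control and 1819, 1816 and 1862 CPM in DMF at 6 h, with no overlap. Its log2 fold changes were 1.28, 1.99, 1.77 and 1.78 at the 4 times (edgeR adjusted p = 2.05e-06, 7.66e-09, 4.24e-08 and 1.11e-08). In the list of other receptors 5 of 13 tested genes rose at 6 h and 5 at 12 h, while 4 rose and 1 fell at 24 h and 4 rose and 2 fell at 48 h. The genes lower in DMF than in control at 48 h were BNIP3 and BNIP3L, mitochondrial receptors induced by low oxygen (log2 fold changes -0.79 ± 0.13 and -0.66 ± 0.11 SE, edgeR adjusted p = 0.00018 and 0.00017). Both had risen in control from 6 to 48 h, BNIP3 by a log2 fold change of 2.55 and BNIP3L by 1.76. Their levels in DMF were also higher at 48 h than at 6 h, a change that was not tested. BNIP3 held 47.1 to 50.1 CPM at 6 h and 139 to 151 CPM at 48 h in DMF. BNIP3L held 55.4 to 56.2 and 91.5 to 108 CPM.

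Among the genes of membrane growth and nucleation, ATG2A and RUBCN had the highest log2 fold changes at 48 h. ATG2A, which encodes a lipid transfer protein that feeds the growing membrane, had log2 fold changes of -0.12, 0.25, 0.70 and 1.3, called at 12, 24 and 48 h (edgeR adjusted p = 0.038, 7.4e-06 and 1.4e-09). At 48 h it had 29.9, 26 and 28.6 CPM in control and 66.3, 70.9 and 70.3 CPM in DMF, with no overlap. RUBCN, which encodes Rubicon, an inhibitor of autophagosome maturation, fell at 6 h and rose at 24 and 48 h (log2 fold changes -0.45, 0.62 and 1.37, edgeR adjusted p = 0.037, 0.0032 and 4.1e-07). Its libraries at 48 h had 65.0, 59.9 and 68.9 CPM in control and 165, 170 and 167 CPM in DMF. The joint test of times called both ATG2A and RUBCN (edgeR adjusted p = 7.1e-07 and 1.7e-05). ATG9A, a membrane protein of the vesicles that seed the autophagosome, fell at 6 h and rose at 24 and 48 h (-0.34, 0.35 and 0.33 on the log2 scale). WIPI2, the relative of WIPI1 that recruits the conjugation machinery, rose at 48 h (log2 fold change 0.51 ± 0.11 SE, edgeR adjusted p = 0.0024), with no call of a difference between times (edgeR adjusted p = 0.542, and 0.00183 in the 22 libraries). Of the nucleation list, 1 of 8 genes was called at each time, RUBCN except at 12 h, where BECN1 was called lower (log2 fold change -0.38 ± 0.12 SE, edgeR adjusted p = 0.029). BECN1 held 59.8, 62.5 and 75.1 CPM in control and 43.6, 45.3 and 62.4 CPM in DMF at 12 h, overlapping through the replicate 3 library of DMF, and was at -0.46 in the 22 libraries (edgeR adjusted p = 3.5e-06). Of the initiation list, ULK2 was called lower at 12 h (-1.09 ± 0.26 SE, edgeR adjusted p = 0.0054) and ATG13 rose at 24 and 48 h (0.22 and 0.35), with no other called gene among the 5. ULK2 held 13.9, 13.5 and 5.77 CPM in control and 5.97, 6.28 and 3.29 CPM in DMF at 12 h, overlapping through the replicate 3 library of control, and was at -1.16 in the 22 libraries (edgeR adjusted p = 4.78e-09).

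Of the 11 conjugation genes, whose products process ATG8 proteins and join them to lipid, 2 rose and 1 fell at 6 h, 4 rose and 1 fell at 12 h, 4 rose at 24 h, and 4 rose and 1 fell at 48 h. ATG4C and ATG4A encode proteases that trim ATG8 proteins. Their log2 fold changes at 48 h were 0.68 ± 0.08 and 0.63 ± 0.10 SE (edgeR adjusted p = 7e-06 and 5.3e-05). ATG12, the gene of another ubiquitin-like protein, rose at 6 and 12 h (0.24 and 0.28) and fell at 48 h (-0.40 ± 0.08 SE, edgeR adjusted p = 0.0006). Fusion genes were called higher for 2, 4, 2 and 5 of 10 at the 4 times and lower for 1 at 12 h, among them RAB7A, a small GTPase of late endosomes (0.48, 0.67, 0.27 and 0.54, called at 24 h only in the 22 libraries). SNAP29, a fusion SNARE, rose at 6, 24 and 48 h (0.39, 0.45 and 0.51), and the adaptor gene PLEKHM1 at 12 and 48 h (0.30 and 0.60). Of 8 regulators tested, TFE3, a transcription factor of lysosomal genes, rose at 12 h (0.62 ± 0.11 SE, edgeR adjusted p = 0.0005). RPTOR and MTOR, of the kinase complex that restrains autophagy, were higher in DMF than in control at 48 h (0.69 ± 0.08 and 0.90 ± 0.32 SE, edgeR adjusted p = 5.1e-06 and 0.043). In control RPTOR held 114 to 116 CPM at 6 h and 52.8 to 56.1 CPM at 48 h. Its DMF libraries held 110 to 118 and 81.1 to 96.7 CPM. MTOR held 112 to 114 and 45.9 to 59.3 CPM in control, and 94.5 to 106 and 94.0 to 104 CPM in DMF. Thus neither gene went up in DMF over this span, and both were lower in control at 48 h.

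**Figure D4:**
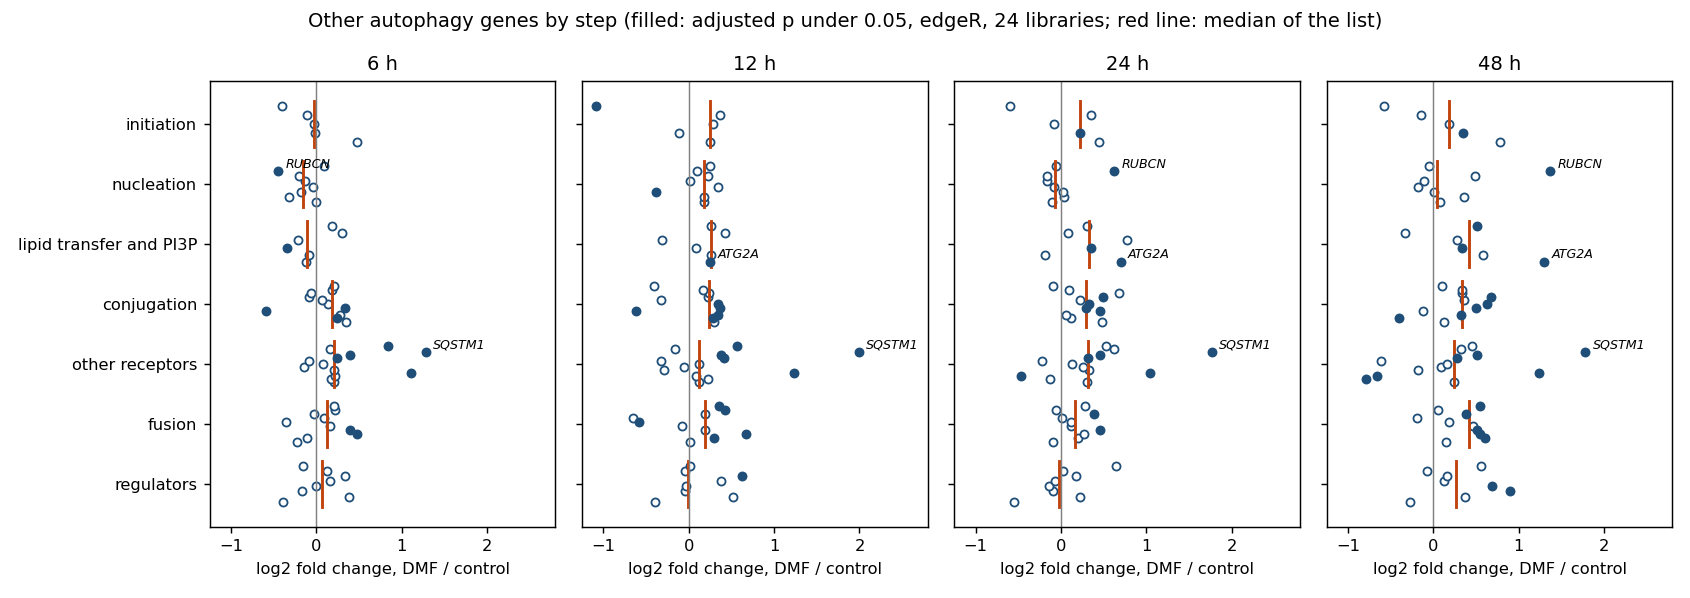
Log2 fold change of DMF over control for each tested gene of 7 lists of autophagy genes at 6, 12, 24 and 48 h (24 libraries), filled where called, with a red line at each list's median. SQSTM1 lies furthest right at each time, and ATG2A and RUBCN lie right of the other genes of their lists at 48 h, at 1.3 and 1.37.

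Genes whose log2 CPM followed a member most closely over the 22 libraries are given as a description, since the libraries share 8 groups. GABARAPL1 was most like FNDC3A (Pearson r = 0.976), AKT1S1 (0.971) and OSGIN1 (0.969). AKT1S1 encodes an inhibitory subunit of the mTOR complex and OSGIN1 is an oxidative stress response gene. With all 24 libraries these r values were 0.591, 0.528 and 0.956, and over the 30 pairs named here they ran from -0.363 to 0.978. MAP1LC3B was most like CD164 (r = 0.969), RNA28SN4 (0.968), a ribosomal RNA gene, and TXNDC5 (0.958). GABARAP was most like CLN3 (r = 0.953), a lysosomal membrane protein gene, HTATIP2 (0.950) and MPC2 (0.938), and GABARAPL2 was most like MPC2 (0.964), FLYWCH1 (0.954) and CRADD (0.949). MPC2, a subunit of the mitochondrial pyruvate carrier, was thus named for both. MAP1LC3A was most like FKBP2 (r = 0.942), ARMCX3 (0.916) and LOC112268313 (0.914).

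For WIPI1 the genes most alike were PDCD4 (r = 0.977), SYT11 (0.967) and MR1 (0.966), and for NBR1 they were CAMK2D (0.983), RETREG3 (0.977) and HPS4 (0.975). RETREG3 encodes a relative of an autophagy receptor of the endoplasmic reticulum. OPTN was most like RGS12 (r = 0.941), BAIAP2 (0.937) and UBE2Q2 (0.923), and CALCOCO2 was most like SGK1 (0.907), LONP1 (0.877) and KLF10 (0.862). TAX1BP1 was most like OAZ2 (r = 0.906), DSTN (0.890) and CCM2 (0.880), which with all 24 libraries were at 0.177, 0.078 and -0.363. The r of UBE2Q2 with OPTN was then 0.165, that of LONP1 with CALCOCO2 0.162 and that of RETREG3 with NBR1 0.357. Among the members themselves, r was highest for GABARAPL1 with MAP1LC3B (0.95), GABARAP with GABARAPL2 (0.91), GABARAP with MAP1LC3A (0.88) and NBR1 with WIPI1 (0.88). It was lowest for OPTN with TAX1BP1 (-0.48), and OPTN with CALCOCO2 was at 0.69.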

How the data were processed

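Total RNA of HBL-1 was isolated with a Qiagen RNeasy Mini Kit, and Illumina libraries were sequenced, per the labels' protocols. The tools named were HISAT2, HISAT and RSEM, with the build GRCh38.p12, per the submitters' processing notes, and no versions were given there. The deposited files gave expected counts (RSEM's estimated reads per gene, of which 6.16% to 11.53% per library were not whole) and the deposited TPM, corrected for effective length, per the file headers. Which strand was counted was not given in the sources used here.

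After rounding of the expected counts, filterByExpr by group left 13419 of 21831 genes, and TMM scaling and quasi-likelihood tests were run in edgeR 4.0.16 (R 4.3.3). The fit took 8 group means from 24 libraries, which left 16 residual degrees of freedom. Benjamini-Hochberg adjustment ran over every gene tested, at a threshold of 0.05. Dividing the absolute log2 fold change by the root of F gave the SE. CPM are on the TMM scale. Replicates of a group differed by more than sampling noise (chi-square per degree of freedom 1.81 to 19.59, and 503.23 to 1061.22 for pairs with a replicate 3 library of 12 h). Control and DMF libraries of the same number at 12 h deviated together from their group means (r = 0.755 to 0.896 for the 3 pairs). Both replicate 3 libraries moved these means, so replicates 1 and 2 deviated the same way in either matching. Control replicate 2 was most like DMF replicate 1. The r therefore cannot show that the numbers are pairs, and the paired values at 12 h are given only as an alternative fit. The shallowest library, replicate 1 of DMF at 48 h with 2870751 counts, gives the least precise values.

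The members and the gene lists were chosen with earlier results of these data known. The text names all 10 members, up to 3 called genes of each other list with the smallest p at any time, and for each member the 3 genes with the highest Pearson correlation of log2 CPM (prior count 2). GABARAPL3 and MAP1LC3C come from a list of ATG8 copies, of which MAP1LC3B2 passed the filter. Alternatives were DESeq2's size factors, no low-count filter, DESeq2 1.42.0, replicate blocks, fits of the 2 groups compared, the 22 libraries, limma 3.58.1 on log2(TPM + 1) or log2(TPM + 0.1), no TPM filter, and each library left out. The edgeR fit was tested on simulated counts, drawn for each gene and library independently. A shift shared by many genes of a library, as in replicate 3 of 12 h, was not simulated, so the effect of such a shift was not tested there. Promoter sequences came from RefSeq (GRCh38.p14), gene positions and overlaps from GENCODE on GRCh38. No protein sequences were used here.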

Additional observations from a re-analysis of the deposited data

Results flagged for a closer look

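The effect of DMF differed between times for 4 members by a test of the difference itself, the joint edgeR test of the 4 times. The adjusted p was 0.000247 for CALCOCO2, 0.00613 for GABARAPL1, 0.0158 for WIPI1 and, near the threshold, 0.0482 for MAP1LC3B. In edgeR 3 members were called with DESeq2's size factors and 3 without the low-count filter, against 15% and 9.09% of all genes. By limma on log2(TPM + 1) it was 2, against 17% of all genes. With a library left out 2 to 4 were called, beside 1578 to 4087 genes.

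CALCOCO2 and OPTN had every DMF library above every control at 6 h and every DMF library below every control at a later time. The lowest log2 fold change of that kind was -0.25 for CALCOCO2 and -0.31 for OPTN, both at 48 h. For OPTN the difference between times did not pass the joint test with 24 libraries (edgeR adjusted p = 0.389) and passed it with the 22 (7.37e-09). The cause was not tested.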

How the results depend on the processing

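The rises of GABARAPL1 with DMF were called under every alternative except a fit of the 12 h groups alone, and those of MAP1LC3B were not all called on the TPM scale. With the 22 libraries the genes called numbered 6421, 6515, 7805 and 8775 at 6, 12, 24 and 48 h (main 1425, 2324, 1933 and 3465), 9408 in the joint test of times (main 2015) and 10207 between controls (main 5638). Members called were 9 higher at 6 h, 7 and 1 lower at 12 h, 8 and 2 at 24 h, 7 and 2 at 48 h, 9 in the joint test and 6 higher between controls. With the replicate block within each time the genes numbered 4789, 6411, 6334, 7425 and, jointly, 8128, and members 7 higher at 6 h, 7 and 1 lower at 12 h, 8 and 2 at 24 h, 7 and 2 at 48 h and 8 jointly. These numbers of genes are 35.7%, 47.8%, 47.2%, 55.3% and 60.6% of all genes. At 6, 24 and 48 h the same-numbered libraries share only a number (r of their deviations -0.06 to 0.043). A replicate block across all groups moved no count by over 1.5 times (1477 genes at 6 h) and added a call of MAP1LC3A at 24 h (1.53, edgeR adjusted p = 0.0289). Fits of only the 2 groups called 7256, 0, 7817 and 7735 genes, and 9531 between controls. These are 57.6%, 0%, 61.5%, 59.7% and 74.8% of the genes tested in each fit. At 12 h edgeR so called 0, with 1109 of 12408 genes at an unadjusted p under 0.05, while DESeq2 on all libraries called 2798. Members in these fits were 9 higher at 6 h, 0 at 12 h (2 at an unadjusted p under 0.05), 8 and 2 lower at 24 h, 7 and 2 at 48 h, and 5 higher between controls.

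With limma on log2(TPM + 1), log2(TPM + 0.1) and no filter, the genes called numbered 1175, 1246 and 1146 at 12 h. With log2(TPM + 0.1) they numbered 922 at 6 h and 1158 at 24 h, and between controls 3719 with a pseudocount of 1 and 3403 with 0.1. Members called higher at 48 h were 6, 5 and 5, with 0 lower in each of the 3 by limma, also at an unadjusted p under 0.05. Of all genes 18.7%, 17.1% and 13.9% were called higher there and 6.6%, 5.63% and 5.94% lower. By limma 3890, 3621 and 5229 genes were at an unadjusted p under 0.05, in either direction. The joint test called 2, 1 and 1, and between controls 1 was higher and 0 lower in each, with 2 higher and 0 lower at an unadjusted p under 0.05. That joint test called 17%, 15.3% and 12.2% of all genes. Between controls 16.9%, 15.1% and 13.4% of all genes were higher and 15.2%, 14.3% and 10.9% lower. There 4612, 4333 and 5879 genes were at an unadjusted p under 0.05 by limma, in either direction. WIPI1 at 24 h was not called with log2(TPM + 0.1) (0.84, adjusted p = 0.0905). At 12 h 1 member was higher without a TPM filter, as were 2.09% of all genes. At 24 h DESeq2 called 1 member and 9.08% of all genes lower. At 48 h edgeR called 0 members lower without the count filter, with 1 at an unadjusted p under 0.05, and DESeq2 called 1. Of all genes 8.61% and 13.9% were called lower in these fits. Without the count filter 4938 genes were at an unadjusted p under 0.05 by edgeR, in either direction.

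With each library left out in turn, genes called ranged from 1005 to 2645 at 6 h, 1711 to 4344 at 12 h, 1282 to 3577 at 24 h, 2684 to 5298 at 48 h, 1578 to 4087 jointly and 4764 to 7503 between controls. Members called higher ranged from 3 to 6, 2 to 5, 3 to 5 and 3 to 6, those lower from 0 to 1 at 12 and 48 h, those called jointly from 2 to 4, and between controls from 3 to 5 higher and 0 to 1 lower. The highest number of genes in each comparison came without control replicate 3 of 12 h.

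Directions turned for values near 0 or at 12 h, in results that were not called with all libraries. With single libraries left out GABARAP at 12 h ranged from -0.57 to 1.06, with -0.24, -0.26 and -0.57 without control replicate 1, control replicate 2 and DMF replicate 3. Without control replicate 3 of 12 h, NBR1 was -0.06, OPTN 0.12 and TAX1BP1 -0.02, the ends of ranges that reached 0.44, -0.64 and 0.5. NBR1 at 6 h was -0.14 with log2(TPM + 1) with and without filter, -0.15 with log2(TPM + 0.1) and -0.01 to 0.04 with a library left out. Between controls GABARAP was -0.01 with all 3 TPM settings and -0.03 to 0.15 with a library left out, and TAX1BP1 was -0.05 with the 3 TPM settings and -0.03 to 0.06 with a library left out, with -0.0 without replicate 1 of 48 h. The cause was not tested beyond what each setting leaves out. Depth limits MAP1LC3A and WIPI1 most, with as few as 6 and 39.9 counts in a library.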
